A study of Mus musculus with 12 samples.

Results

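Intronic sites of open chromatin that were listed in mouse embryonic fibroblasts (MEFs) and not in mouse embryonic stem cells (mESCs) are described here. The sites were chosen by measured peak calls. A site is a peak of the BGI peak set that lay over 1 kb from every annotated transcription start site (TSS), within a gene but over none of its exons. It also had to overlap by at least 1 bp the lists of reproducible MEF peaks of both sequencing platforms and neither mESC list. Of 91354 peaks in the set, 28076 were intronic and distal, and 9802 of these, 10.7% of the whole set, met the rule.

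The chromatin came from cells of a C57/Bl6 background. MEF cultures were sorted for THY1, and mESC cultures were sorted as THY1-, SSEA1+ and EPCAM+ cells. Omni-ATAC-seq libraries numbered 1, 2 and 4 were made from MEFs and libraries 1, 3 and 5 from mESCs. Every library was sequenced by DNBSEQ-G400 (called BGI here) and again by HiSeqX10 (called Illumina), which makes 12 samples, 3 for each cell type and platform. No group carried an induced mutation or a drug treatment according to the labels. The libraries of a cell type are separate biological replicates, whereas the platforms of a library are repeat readings of the same DNA.

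In ATAC-seq the Tn5 transposase inserts sequencing adapters where DNA is not wrapped tightly, so a peak of reads marks a stretch of open chromatin. Many such stretches inside introns are enhancers, which are bound by transcription factors and act on promoters at a distance, and they vary between cell types far more than promoters do. In fibroblasts, AP-1 (dimers of FOS and JUN proteins), TEAD proteins (the DNA-binding partners of YAP and TAZ) and RUNX proteins are known to bind many enhancers, while OCT4, SOX2, KLF4 and ESRRB do so in mESCs.

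The most open of the sites are shown first, to let the letters under the strongest signal be read. Each line gives the centre of a site with 100 bases on either side, on the plus strand of GRCm38, from the RefSeq assembly, with the host gene and the position. Capitals mark matches to the AP-1 word TGAGTCA, the TEAD word GGAATGT or the RUNX word TGTGGTT on either strand.
Sorcs2, chr5:36226357-36226557: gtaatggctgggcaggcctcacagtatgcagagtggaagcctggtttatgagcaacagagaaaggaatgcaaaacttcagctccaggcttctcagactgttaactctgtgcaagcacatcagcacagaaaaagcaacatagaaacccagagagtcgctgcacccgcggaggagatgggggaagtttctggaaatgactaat
Hip1, chr5:135522497-135522697: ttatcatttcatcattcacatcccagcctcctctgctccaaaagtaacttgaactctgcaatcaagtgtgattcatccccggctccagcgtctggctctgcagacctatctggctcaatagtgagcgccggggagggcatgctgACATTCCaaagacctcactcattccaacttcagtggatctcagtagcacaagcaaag
Morn1, chr4:155134140-155134340: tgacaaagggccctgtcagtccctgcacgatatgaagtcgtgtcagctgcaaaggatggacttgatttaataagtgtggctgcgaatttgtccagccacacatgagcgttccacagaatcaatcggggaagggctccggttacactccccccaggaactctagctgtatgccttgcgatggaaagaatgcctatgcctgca
Only the Hip1 window held such a match, to the TEAD word. These 3 sites had the highest mean MEF level of all.

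From genes of 5 fixed lists (matrix, mesenchymal factors, AP-1, TEAD and YAP, RUNX and NFI), the following sites were the most open of the gene with most sites. They are shown because the lists hold the genes and the factors named above.
Col4a2, chr8:11393191-11393391: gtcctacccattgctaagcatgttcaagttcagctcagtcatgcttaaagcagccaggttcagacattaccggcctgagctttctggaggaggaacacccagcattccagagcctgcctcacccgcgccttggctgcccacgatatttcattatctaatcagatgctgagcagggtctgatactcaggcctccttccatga
Tcf7l2, chr19:55875686-55875886: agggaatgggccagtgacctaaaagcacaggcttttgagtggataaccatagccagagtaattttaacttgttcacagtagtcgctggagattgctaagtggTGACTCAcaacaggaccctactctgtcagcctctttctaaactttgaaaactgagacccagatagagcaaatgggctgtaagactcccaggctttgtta
Jdp2, chr12:85604719-85604919: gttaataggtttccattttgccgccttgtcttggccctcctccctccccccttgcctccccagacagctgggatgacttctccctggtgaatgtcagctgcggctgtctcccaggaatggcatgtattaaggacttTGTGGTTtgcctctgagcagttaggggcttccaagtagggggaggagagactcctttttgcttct
Tead1, chr7:112686636-112686836: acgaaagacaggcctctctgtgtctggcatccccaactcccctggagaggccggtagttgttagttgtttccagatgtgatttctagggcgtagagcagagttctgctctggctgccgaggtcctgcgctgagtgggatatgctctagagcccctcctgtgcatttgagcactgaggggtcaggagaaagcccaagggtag
Nfia, chr4:98004222-98004422: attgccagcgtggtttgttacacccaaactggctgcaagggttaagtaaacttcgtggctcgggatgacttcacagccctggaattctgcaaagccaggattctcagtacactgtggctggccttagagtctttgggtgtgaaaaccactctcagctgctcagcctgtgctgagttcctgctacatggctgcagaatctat
The Tcf7l2 window held an AP-1 match next to its centre and the Jdp2 window a RUNX match. The other 3 windows held none of these words.

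A last set shows sites at which MEF library 4 fell far below libraries 1 and 2, chosen after their values were seen. They are those of the 5 sites that differed most between MEF libraries that hold an AP-1 match, which was a condition for showing them. The other 2 of the 5 hold none.
Ndst3, chr3:123653078-123653278: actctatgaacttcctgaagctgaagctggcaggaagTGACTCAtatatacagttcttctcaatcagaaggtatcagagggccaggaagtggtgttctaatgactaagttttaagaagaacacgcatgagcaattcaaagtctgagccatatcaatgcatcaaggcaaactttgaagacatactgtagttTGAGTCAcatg
Gid4, chr11:60436736-60436936: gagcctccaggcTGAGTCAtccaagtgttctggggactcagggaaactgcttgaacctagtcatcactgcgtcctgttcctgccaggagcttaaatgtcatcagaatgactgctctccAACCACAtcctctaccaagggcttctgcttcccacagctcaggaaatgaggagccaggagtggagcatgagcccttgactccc
Dgki, chr6:36970488-36970688: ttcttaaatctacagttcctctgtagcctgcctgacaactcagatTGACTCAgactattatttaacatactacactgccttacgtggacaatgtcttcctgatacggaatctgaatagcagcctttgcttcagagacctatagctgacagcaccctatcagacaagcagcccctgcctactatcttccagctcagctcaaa
The Ndst3 window held 2 AP-1 matches, the Dgki window 1, and the Gid4 window 1 AP-1 and 1 RUNX match. Their levels are given with the library differences.

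Reads counted in the 91354 peaks ranged from 15860985 to 21831840 per sample. At the promoters of 8 fibroblast markers (Thy1, Col1a1, Col1a2, Col3a1, Pdgfra, Pdgfrb, Prrx1 and Twist2) every MEF sample lay above every mESC sample, and the summed level was 376 to 450 CPM (reads per 1000000 reads in peaks) in MEFs and 121 to 131 CPM in mESCs. At the promoters of 7 stem cell markers, among them Pou5f1, Nanog and Zfp42, the order was the opposite for all 7, with at most 46.2 CPM in MEFs and 340.0 to 402 CPM in mESCs. No list of endothelial, blood, epithelial, skeletal muscle or neuronal promoters had a higher summed level in every MEF sample than in every mESC sample. Single genes did: 1 gene in each of the endothelial, blood and neuronal lists was higher in every MEF sample. In those lists 1, 1 and 7 genes were higher in every mESC sample. Only 2 of the 8 blood genes had a promoter peak. Csf1r held 12.6 to 17.0 CPM in MEFs and 0.644 to 2.77 CPM in mESCs. Cd68 held 11.4 to 21.0 CPM in MEFs and 56.2 to 67.8 CPM in mESCs. In bulk chromatin, a site open in fewer cells and a site less open in each cell cannot be told apart.

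The level at the sites is part of how they were selected and is therefore given as a description. The median site held 9.97, 9.84 and 9.21 CPM in MEFs 1, 2 and 4 on BGI and 9.12, 8.98 and 8.33 CPM on Illumina. In mESCs 1, 3 and 5 it held 1.20, 1.01 and 1.12 CPM on BGI and 1.05, 0.878 and 0.984 CPM on Illumina, so the groups' medians were far apart. The median count behind a site was 172 to 216 reads in a MEF sample and 15.0 to 19.0 in a mESC sample. No site was without reads in all 6 mESC samples, and between 98 and 209 sites had no read in a given mESC sample.

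**Figure D1:**
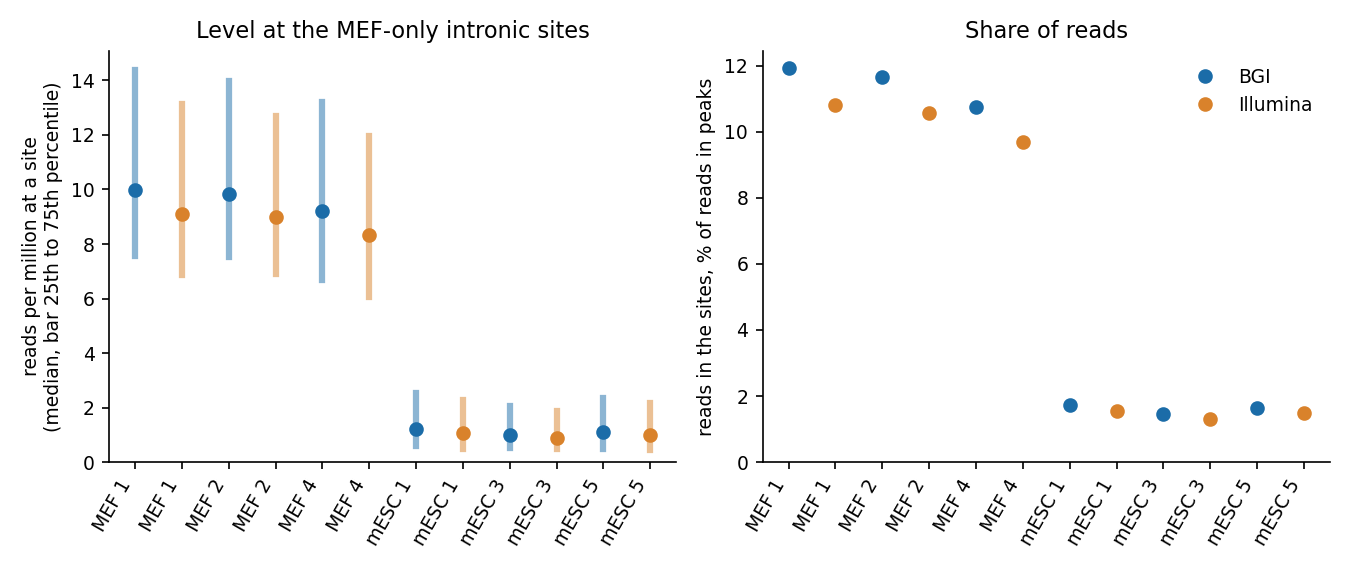
Left, CPM at the 9802 sites in each sample, with the median as a point and a bar from the 25th to the 75th percentile. Right, the share of a sample's reads in peaks that fell in the sites, 9.70% to 11.9% in MEF samples and 1.32% to 1.73% in mESC samples; in each library the BGI point (blue) lies above the Illumina point (orange).

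Per site, the mean over the 6 MEF samples ran from 3.40 to 55.7 CPM with a median of 9.20, and the mean over the 6 mESC samples ran from 0.00975 to 29.6 CPM with a median of 1.04. At 9447 sites (96.4%) the 6 MEF samples all lay above the 6 mESC samples, against 37.0% of all peaks. By the edgeR test with Benjamini-Hochberg adjustment, 9687 sites were lower in mESCs on BGI and 9661 on Illumina, where 43.2% and 43.4% of all peaks were called lower. The median log2 fold change of mESC over MEF was -3.37 on either platform. These counts restate the selection of the sites, and nothing is read from them.

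By the same test 6 sites were called higher in mESCs on BGI and 7 on Illumina, where 40.9% and 41.2% of all peaks were so called. Although no mESC list held a peak over them, the reads there were more frequent in mESCs. At the loose threshold of single samples, all 6 mESC samples had a called interval at each of them. The clearest was a site in intron 3 of 4 of Zbtb7c, a zinc-finger gene, at chr18:76034460-76034961. It held 14, 12.5 and 12.4 CPM in MEFs 1, 2 and 4 on BGI and 10.7, 11.1 and 12.3 on Illumina, against 27.6 to 33.5 CPM in the 6 mESC samples. The groups did not overlap, and the log2 fold change was 1.11 on BGI and 1.35 on Illumina. The others lay in Nmnat2, Ube2h, Ralgds, Grid1, Elk3 and 4932412D23Rik, and Ralgds was called on Illumina alone; these 7 were named after their values were seen.

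The edge of the rule is fuzzy in both directions. The 5 sites with the highest mESC level, in Zbtb7c, Nmnat2, Ube2h, Ralgds and 4932412D23Rik, had mean levels of 29.6, 22.5, 16.5, 15.5 and 14.3 CPM in mESCs. Just outside the rule, the 5 intronic distal peaks of all 4 lists with the lowest mESC level, in Maml2, 2010111I01Rik, Gm20388, Col4a1 and Rasa3, had 0.518, 1.16, 1.31, 1.44 and 1.53 CPM in mESCs. A further 388 intronic peaks were kept out by the mESC list of BGI alone and 206 by that of Illumina alone. These values are part of the rule and are given as a description.

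Calls at the loose threshold of single samples, from which the lists used by the rule were built, are given as a description. In MEFs, 9789 of the 9802 sites (99.9%) overlapped a called interval in all 6 samples. In mESCs, 5318 sites (54.3%) overlapped no called interval in any of the 6 samples, and 2047 (20.9%) overlapped one in all 6. Between those ends, 671 sites were touched in 1 mESC sample, 472 in 2, 389 in 3, 400 in 4 and 505 in 5. The median summit at a site stood 11.4- to 15.4-fold above the genome-wide background in MEF samples and, where a summit was called, 4.46- to 4.80-fold in mESC samples.

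The 10 most open sites had mean MEF levels of 49.0 to 55.7 CPM. The first lay in intron 2 of 26 of Sorcs2, a sortilin-family receptor gene, at chr5:36226206-36226707, and held 64.3, 56.4 and 55.8 CPM in MEFs 1, 2 and 4 on BGI and 56.3, 51.8 and 49.7 on Illumina. Its mESC values were 0.861 to 3.28 CPM. The second lay in intron 1 of 30 of Hip1, which codes for a clathrin-associated protein, with 49.0 to 67.5 CPM in the MEF samples and 3.92 to 6.68 CPM in the mESC samples. The others lay in Morn1, Mcc, Gm29683, Il1rl1, Ttll5, Pvt1, Aff1 and Mall. Il1rl1 codes for the receptor of interleukin 33, Pvt1 for a long non-coding RNA beside Myc, and Aff1 for a scaffold of the super elongation complex. The Pvt1 site lay 106 kb from the nearest TSS, and the Ttll5 site 1.68 kb.

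The sites lay a median of 11.9 kb from the nearest TSS of any transcript, and 25.3% lay within 5 kb, 55.1% beyond 10 kb and 3.13% beyond 100 kb. Intronic distal sites listed only in mESCs (9392 sites, by the mirrored rule) had a median of 8.49 kb, with 45.0% beyond 10 kb, and those listed in both cell types on both platforms (3928 sites, called shared) had 6.89 kb with 38.8%. These differences were not tested. Of the 9802 sites, 35.0% lay in the first intron of the longest transcript of the host gene, against 36.6% of mESC-only and 37.4% of shared sites. Neighbouring sites were often close: 37.5% had another site within 10 kb, as had 37.1% of mESC-only sites.

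A protein-coding gene hosted 88.3% of the sites and a lincRNA 8.15%. Of 21951 protein-coding genes, 3459 (15.8%) hosted at least 1 site, and their median body was 93.2 kb, against 13.2 kb for those without a site. Sites were spread unevenly: 2285 genes hosted 1 site, whereas 492 genes hosted at least 5 and together held 3917 of all sites. Many genes held sites of both kinds: 1730 protein-coding genes also hosted a mESC-only site, out of 3459 hosts of MEF-only and 4116 hosts of mESC-only sites. Of 466 protein-coding genes with at least 5 MEF-only sites, 119 had no mESC-only site.

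The gene model Gm20388, whose annotated body of 4435 kb covers many shorter genes, was assigned most sites, 84. Among ordinary genes, Rbms3, which codes for an RNA-binding protein, held 28 sites, and Slit3, which codes for a secreted ligand of ROBO receptors, held 24, beside 3 and 8 mESC-only sites. Gse1 held 24 MEF-only and 16 mESC-only sites. Trio, which codes for a guanine nucleotide exchange factor, held 22 MEF-only sites and 1 mESC-only site, and Dnm3 (a dynamin) held 21 and 0. Lpp, whose product sits at focal adhesions, also held 21 sites, and Zfhx3, Ttc28 and Frmd4a held 19 each.

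**Figure D2:**
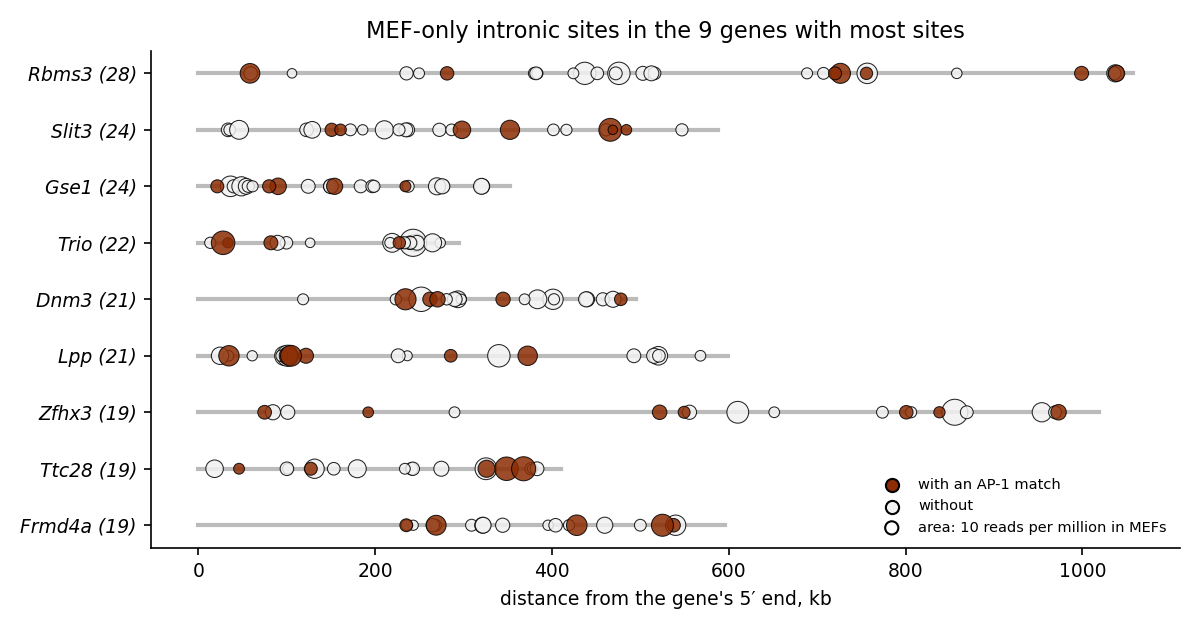
Positions of the sites along the 9 genes with most sites after Gm20388, as the distance in kb from the 5′ end of the gene, with the gene body as a grey line and the number of sites beside the name. The area of a circle is the mean MEF level in CPM, and filled circles hold an AP-1 match. The sites, with or without a match, run from 28 in Rbms3 to 19 in Frmd4a, and the stretch next to the 5′ end of Frmd4a holds none.

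Per length of gene body, protein-coding genes held 0.806 sites per 100 kb. The densest, among genes with at least 5 sites, was Adgra2, an adhesion receptor gene, with 8 sites in 37.9 kb (21.1 per 100 kb). Mxra7 followed with 5 sites in 24.98 kb, then Smad7 (an inhibitor of TGF-beta signalling) with 17.6 per 100 kb, the lincRNA gene Gm32585 with 17.4 and Anxa2, an annexin gene, with 15.7. Pdgfrb, the PDGF receptor gene used as a fibroblast marker, held 5 sites in 39.9 kb (12.5 per 100 kb). Pxn, which codes for the focal adhesion protein paxillin, Synpo, which codes for an actin-binding protein, Cyth3 and Snap47 held 12.2, 12.1, 11.4 and 11.3 per 100 kb. Of these 10 genes, only Gm32585 held a mESC-only site.

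Fixed gene lists were read for how many members hosted a site, beside the 15.8% of all protein-coding genes. These shares were not adjusted for gene length. All 10 RUNX and NFI factor genes hosted sites, 71 in all, with 11 mESC-only sites. Nfia held 16 and Runx1 14, with no mESC-only site in either, and Runx2, the regulator of bone formation, held 13 with 1. The most open Runx2 site, in intron 5 of 5 at chr17:44500400-44500901, held 46.1, 43.2 and 28.8 CPM in MEFs 1, 2 and 4 on BGI and 40.5, 40.5 and 25.4 on Illumina, and 1.74 to 3.01 CPM in mESCs. It had 2 AP-1 matches. MEF 4 was the lowest MEF library there on both platforms.

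Of 30 matrix genes, 16 hosted 71 sites, against 5 mESC-only sites in 4 of them. Col4a2 held 15 sites, Col5a1 12, Col4a1 10 and Fbn1, the fibrillin 1 gene, 10. The most open Col5a1 site, in intron 1 of 65 at chr2:27889040-27889541, held 27.7, 25.6 and 25.1 CPM in MEFs 1, 2 and 4 on BGI and 32.2, 31.1 and 25.6 on Illumina. In the mESC samples it held 0.31 to 1.49 CPM, without overlap. The Fbn1 site in intron 22 of 64 held 18.9, 19.1 and 11.4 CPM on BGI and 19.0, 15.6 and 9.98 on Illumina, so MEF 4 was again the lowest. No site lay in Col1a1, Col1a2 or Col3a1, whose promoters were open in MEFs.

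Of 33 actin and adhesion genes found in the annotation, 20 hosted 115 sites, the largest count of any list, and 39 mESC-only sites. Per 100 kb this was 3.12 sites, below RUNX and NFI (3.96), TEAD and YAP (3.48) and matrix genes (3.46). Lpp held 21 sites, Palld (palladin) 18, Cald1 (caldesmon) 17 and Mylk (myosin light chain kinase) 10. In the TGF-beta pathway 14 of 25 genes hosted 58 sites, among them the co-receptor gene Tgfbr3 with 11, the signal transducer gene Smad3 with 9, and Smad7 and Acvr1 with 5 each. Of 16 growth factor receptor genes, 14 hosted 80 sites, but also 32 mESC-only sites. Fgfr2, annotated with a body of 2961 kb, held 19 and 10, Ror2 10 and 10, Igf1r 8 and 3, and Ror1 8 and 1.

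Mesenchymal transcription factor genes hosted 72 sites in 14 of 25 genes, among them Tcf7l2 with 12, Foxp1 with 10 and Glis3 with 9, and 24 mESC-only sites. TEAD and YAP pathway genes hosted 37 sites in 11 of 18 genes, with 7 in Tead1, 6 in the kinase gene Lats2 and in Vgll4, and 4 in Amotl1, and 28 mESC-only sites. The small AP-1 factor genes hosted 5 sites in 3 of 12 genes, 2 each in Jdp2 and Atf3 and 1 in Maff, and 6 mESC-only sites, 4 of them in Jdp2. No site fell in the genes of the other 9 factors.

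Per length, the lists above held from 1.33 (growth factor receptors) to 3.96 (RUNX and NFI) sites per 100 kb. The lists of other cells held fewer, though not all lay below the 0.806 per 100 kb of all protein-coding genes. By the share of genes with a site the lists were not set apart. That share was 62.5% for endothelial and 58.3% for neuronal genes, against 53.3% for matrix genes. Of 30 pluripotency genes, 4 (Tet1, Lin28b, Tfcp2l1 and Nr5a2) hosted 1 MEF-only site each, whereas the list held 52 mESC-only sites. Neuronal marker genes, which are long, hosted 30 sites in 7 of 12 genes, led by Rbfox1 with 9, Dlg2 with 6, Cntnap2 with 5 and Syt1 with 4, or 0.297 sites per 100 kb. Endothelial marker genes hosted 8 sites in 5 of 8 genes, among them Flt1 with 3, Erg with 2, and Kdr and Cdh5 with 1 each, or 0.973 sites per 100 kb. Sites of the other kind were about as many in both lists, with 29 mESC-only sites in the neuronal and 9 in the endothelial list. The pluripotency list held 0.365 per 100 kb. Blood cell, epithelial and skeletal muscle marker genes hosted 0 MEF-only sites, and the epithelial list held 18 mESC-only sites.

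The promoter of the host gene was in most cases listed in both cell types. Of the 8657 sites in protein-coding genes, 84.6% lay in a gene with promoter peaks on the lists of both cell types, 5.93% in a gene with a promoter listed only in MEFs, 3.26% only in mESCs and 6.21% in neither. Among mESC-only intronic sites the shares were 85.4%, 2.98%, 5.36% and 6.30%. A listed promoter can still differ in level between the cell types, which was not compared here.

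The letters of the sites were not used to choose them. Over the whole peak, matches on both strands were counted for the words AP-1 (TGAGTCA), its letters reversed (ACTGAGT), CRE (TGACGTCA), TEAD (GGAATGT), RUNX (TGTGGTT), a full NFI palindrome (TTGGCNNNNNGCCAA), C/EBP (TTGCNNAA), CTCF (CCANNAGNNGGC), the E-box CAGCTG, the E-box CAGGTG, the E-box CATCTG and a homeobox word (TAATTA). Also counted were MEIS (TGACAG), FOX (TGTTTAC), a word of the GATA family (AGATAA), a word of the ETS family (CCGGAAG), STAT (TTCCNGGAA), OCT (ATGCAAAT), SOX (CCATTGT), ESRRB (TCAAGGTCA), KLF (GGGTGTGG) and the CArG box. The reversed letters can share 5 bases with an AP-1 match beside them. A match is a description of the letters, not of binding.

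The AP-1 word was in 3635 sites, or 37.1% (95% Wilson interval 36.1 to 38.0, counting error only). It was in 16.2% of mESC-only sites, 24.0% of shared sites and 19.9% of all peaks. The reversed letters, away from any AP-1 match, were in 8.44%, 7.88% and 8.53% of MEF-only, mESC-only and shared sites. The TEAD word was in 19.1%, 10.3% and 12.1% of the same classes, and the RUNX word in 17.0%, 11.2% and 11.1%. In intergenic MEF-only sites the shares were almost those of the intronic ones, at 39.2% for AP-1, 19.6% for TEAD and 16.5% for RUNX.

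Words of stem cell factors were rarer in the sites than in mESC-only sites: KLF 4.65% against 10.5%, SOX 5.85% against 9.73%, OCT 2.34% against 5.71% and ESRRB 0.663% against 3.26%. Shared sites lay near the MEF-only sites for SOX (6.47%), OCT (2.42%) and ESRRB (0.942%) and between both classes for KLF (7.46%). The CTCF word was in 4.63% of the sites, 8.48% of mESC-only sites and 24.0% of shared sites. The full NFI palindrome was too rare to compare, with 5 matched sites in either class. GC content was a median of 46.7% in the sites, 49.3% in mESC-only sites and 51.3% in shared sites, and its part in these shares was not tested.

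**Figure D3:**
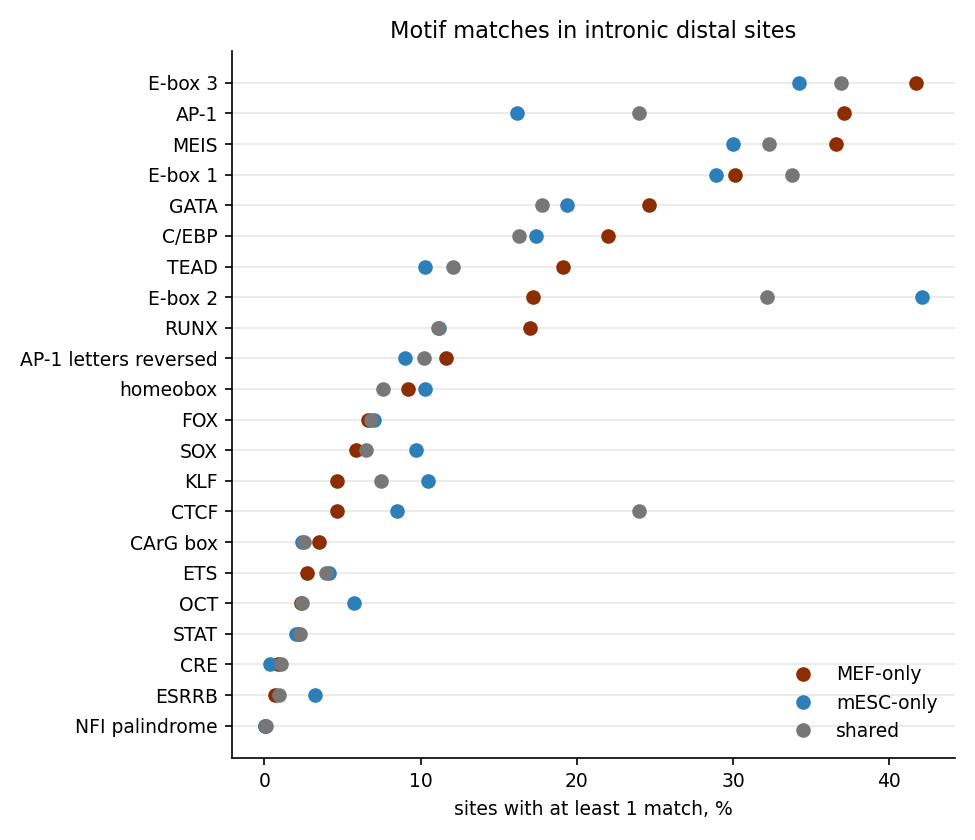
Percent of MEF-only (brown), mESC-only (blue) and shared (grey) intronic distal sites with at least 1 match to each word; E-box 1 is CAGCTG, while E-box 2 is CAGGTG and E-box 3 stands for CATCTG. MEF-only points lie to the right for AP-1 (37.1%) and TEAD (19.1%) and far to the left for E-box 2 (17.2%).

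AP-1 matches were gathered at the centre. The match nearest the centre lay a median of 33.0 bp from it, and 66.2% of the AP-1 sites had one within 50 bp, against 53.0 bp and 48.3% in mESC-only sites with the word. In the 20 bp around the centre there were 63.6 AP-1 matches per 1000 MEF-only sites, and at the outer edge of the window 3.47. TEAD matches lay a median of 53.0 bp from the centre and RUNX matches 83.0 bp. Sites with both AP-1 and TEAD words made up 5.86%, below the 7.09% that is the product of the separate shares.

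The E-box CAGGTG, the letters bound by ZEB and SNAIL repressors among other factors, had the reverse pattern. It was in 17.2% of the sites, against 42.1% of mESC-only sites, 32.2% of shared sites and 31.9% of all peaks. Within the central 200 bp it was in 3.12% of the sites and in 23.5% of mESC-only sites. Its density fell from 10.5 matches per 1000 sites at the edge of the window to 2.86 at the centre, while in mESC-only sites it rose from 14.5 to 26.7. The E-box CAGCTG, which has the same GC content but reads the same on both strands, was in 30.1% of MEF-only and 28.9% of mESC-only sites and rose toward the centre in both, to 18.8 and 20.2 matches per 1000 sites.

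**Figure D4:**
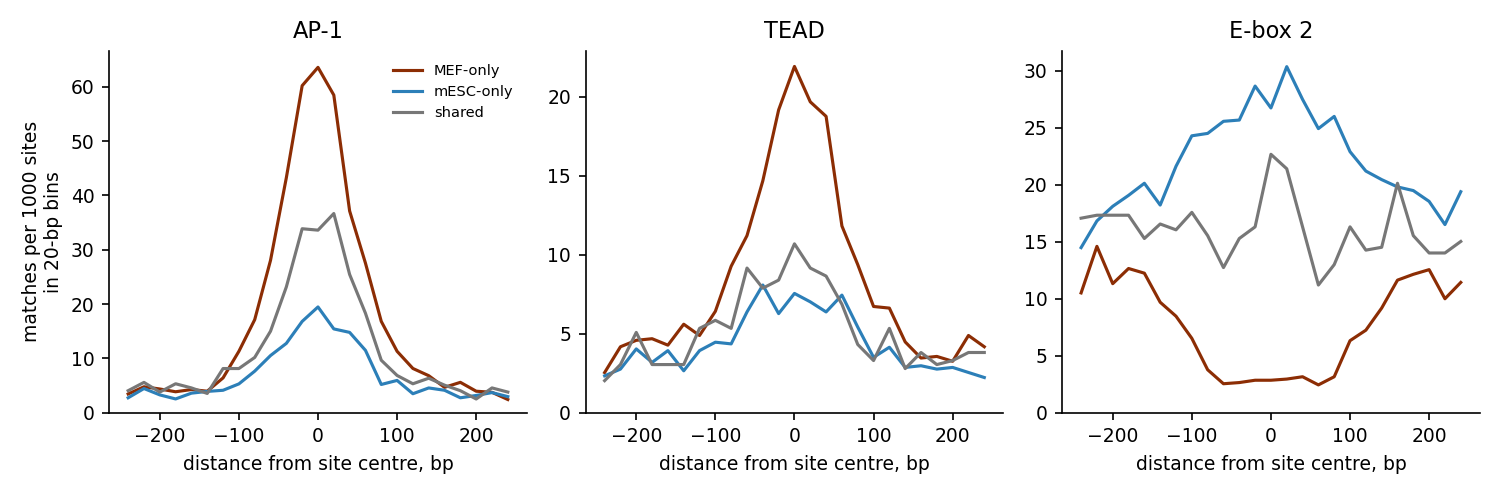
Matches per 1000 sites in 20-bp bins of distance from the site centre for AP-1, TEAD and E-box 2 (CAGGTG), in MEF-only (brown), mESC-only (blue) and shared (grey) intronic distal sites. AP-1 peaks at 63.6 in MEF-only sites, and E-box 2 drops to 2.86 at their centre while it is 26.7 in mESC-only sites.

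A count of every 7-base word in both strands gave 4044 words present in at least 5% of the sites. The 10 with the highest ratio of the share of sites to the share of mESC-only sites had ratios of 2.15 to 2.54. Of these, ATGAGTC (16.9% of sites), ATGACTC (17.7%) and TGACTCA (37.1%) are parts or the whole of the AP-1 word. TGAATCA (13.5%), ATGAATC (8.81%) and ATGATTC (7.87%) differ from such words in the middle, and AGTCATA (8.93%) continues them. The other 3, ATATTTC (8.61%), AAATATT (11.1%) and AAATATG (11.7%), hold mostly A and T bases.

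Over the 6 MEF samples, sites with an AP-1 match had a median level of 9.48 CPM, against 9.06 CPM without. By number of matches the median was 9.43 CPM with 1, 10.1 CPM with 2 and 9.34 CPM with 3 or more, and it was 10.2 CPM with both AP-1 and TEAD matches. These medians pool libraries that went opposite ways. In MEF 1 on BGI the median was 9.46 CPM without a match and 10.6 CPM with 1, whereas in MEF 4 it was 9.46 CPM without and 8.69 CPM with 1, and Illumina gave the same order. With the sites cut into 10 equal classes of MEF level, the AP-1 share was 37.7% in the lowest class, 33.2% in the fourth and 43.5% in the highest, and the TEAD share rose from 16.5% in the lowest to 24.7% in the highest. The CTCF share went from 11% in the lowest class to 2.24% in the highest. These classes are cuts of a level that helped to choose the sites, and they carry no test.

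MEF 4 differed from the other MEF libraries at the sites more than the platforms did, while MEF 1 and MEF 2 differed less. At a site MEF 1 and MEF 4 were a median of 0.323 apart on the log2 scale of CPM on BGI (0.329 on Illumina), and MEF 1 and MEF 2 were 0.148 apart (0.149 on Illumina). The readings of 1 library on both platforms were 0.168 to 0.176 apart. After removal of the platform mean, readings of the same library correlated across the sites at r = 0.685 to 0.873, so that the differences between libraries were read alike by both instruments. This correlation is across sites, which share their libraries, and it carries no p.

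At these sites MEF 4 stood apart from the other MEF libraries. It was the lowest of the 3 on both platforms at 4524 sites (46.2%), MEF 1 at 1171 (11.9%) and MEF 2 at 1295 (13.2%). MEF 4 was lowest on both platforms at 46.3% of MEF-only intergenic sites as well, and at 26.1% of shared intronic sites, where MEF 1 was lowest at 21.1%. At mESC-only intronic sites MEF 1 was lowest most often, at 22.0%, and MEF 4 at 15.8%. These shares were not tested against each other. Its reads in peaks, 20085886 on BGI, were close to the 20119289 of MEF 2. The summed level at fibroblast marker promoters was 450 CPM in MEF 4, 426 in MEF 1 and 382 in MEF 2 on BGI. No list of other cell types was higher on both platforms in MEF 4 than in both other libraries except the stem cell markers (44.5 and 46.2 CPM, against at most 43.5 and 44.3) and the skeletal muscle markers (34.1 and 36.1 CPM, against at most 33.8 and 35.2). Lowest in MEF 4 on both platforms were the blood cell (29.2 and 25.2 CPM), epithelial (42.3 and 44.1 CPM) and neuronal markers (314 and 296 CPM). The blood sum came from 2 promoters that differed. Cd68 was lowest in MEF 4, at 13.0 and 11.4 CPM. Csf1r was not, at 16.2 and 13.8 CPM against 14.4 and 12.6 CPM in MEF 1. The part of any of these in the library difference was not tested.

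The drop in MEF 4 followed the number of AP-1 matches. At sites without a match, the log2 level in MEF 4 minus the mean of MEF 1 and MEF 2 had a median of 0.002 on BGI and -0.018 on Illumina. With 1 match it was -0.298 and -0.316, with 2 matches -0.527 and -0.503, and with 3 or more -0.666 and -0.675. In CPM, the median site with 2 matches held 12, 11.6 and 8.61 in MEFs 1, 2 and 4 on BGI and 10.7, 10.3 and 7.65 on Illumina. Of the sites with a match, 80.9% were lower in MEF 4 on BGI, against 49.8% of the sites without. Of the sites lowest in MEF 4 on both platforms 53.6% held an AP-1 match, and of the 2214 sites highest there on both 12.9% did.

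**Figure D5:**
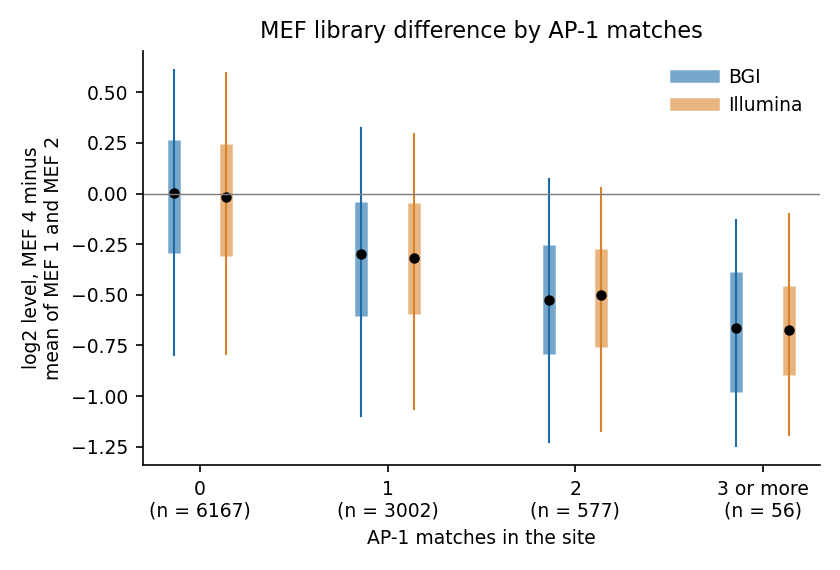
Log2 level in MEF 4 minus the mean of MEF 1 and MEF 2 at sites with 0, 1, 2 and 3 or more AP-1 matches, on BGI (blue) and Illumina (orange), with the median as a point, a thick bar from the 25th to the 75th and a thin line from the 5th to the 95th percentile of sites. The medians step down on both platforms, from 0.002 to -0.666 (BGI) and -0.018 to -0.675 (Illumina).

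None of the other 21 words came with a drop of this size. For TEAD the medians on BGI were -0.145 with a match and -0.127 without, and for RUNX -0.123 and -0.132. These splits mix sites with and without an AP-1 match. At sites without an AP-1 match, the difference over both platforms was -0.0858 with a TEAD match (1299 sites) and 0.0166 without (4868 sites). At sites with an AP-1 match it was -0.329 with a TEAD match (574 sites) and -0.353 without (3061 sites). The reversed AP-1 letters, which overlap AP-1 matches in part, had -0.225 and -0.117, and CTCF went the other way, with 0.053 and -0.141. MEF 1 and MEF 2 did not differ by the AP-1 word, with a median difference of 0.029 with a match and 0.028 without. The same step was seen outside the sites: in intergenic MEF-only sites the medians on BGI were -0.353 with an AP-1 match and 0.017 without, and in shared intronic sites -0.225 and 0.090. AP-1 reads made up 40.3% of the reads in the sites in MEFs 1 and 2 on BGI and 35.5% in MEF 4, and 39.8%, 39.7% and 35.0% on Illumina. MEF 4 is 1 library, so a difference between libraries of this kind has no replicate and no test.

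The 5 sites that differed most among the MEF libraries all had MEF 4 at the bottom. The site in intron 2 of 13 of Ndst3, a heparan sulfate enzyme gene, at chr3:123652927-123653428, held 8.54, 9.74 and 1.54 CPM in MEFs 1, 2 and 4 on BGI and 7.05, 7.71 and 1.94 on Illumina. Its range over libraries was 2.31 on the log2 scale. The site in intron 4 of 7 of Gid4, which codes for the substrate receptor of a ubiquitin ligase, held 16.8, 14.2 and 3.73 CPM on BGI and 16.7, 13.1 and 4.75 on Illumina. The sites in Primpol, Dgki and Cdr2 had ranges of 2.05, 1.92 and 1.91. In Primpol and Cdr2 the site held no AP-1 match. At other sites MEF 4 was the highest library, such as the Nfib site at chr4:82555783-82556284, with 15.5, 15.1 and 25.6 CPM in MEFs 1, 2 and 4 on BGI and 13.6, 14.2 and 24.6 on Illumina.

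The platforms were compared at the sites within MEFs, a contrast the rule used in part. A site had to be listed on both platforms, but candidates came from the BGI peak set, and 2132 intronic distal peaks listed in MEFs on BGI alone were not taken. All 9802 sites had a counterpart of at least 50% overlap in the table of MEF peaks of both platforms, in 9777 of its 61891 peaks. The ratio of BGI to Illumina was a median of 0.133 on the log2 scale at the sites and 0.068 over all peaks of the table, and it was above 0 at 83.6% of the sites. In the edgeR test without pairing, 4 sites were called higher on BGI, where 0.107% of all peaks were, and 0 lower, where 3.96% were. At an unadjusted p under 0.05 there were 390 sites, where 15.2% of all peaks passed. DESeq2 called 54 sites higher and 2 lower, where it called 0.837% and 8.72% of all peaks. The edgeR count moved with the libraries used. Without MEF 4, 73 sites were higher and 11 lower, where 370 and 5762 of the 61891 peaks were. Without MEF 1 or MEF 2 no peak was called.

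With the library as a block, 1904 sites were called higher on BGI and 55 lower, against 13.9% and 15.3% of all peaks. Of the sites this is 19.5% and 0.563%. With the block and an offset for GC content, 263 sites were higher and 175 lower, against 6.52% and 6.19% of all peaks, and the median ratio at the sites was 0.011. Within the sites the ratio moved with GC: its median was 0.122 at 30 to 35% GC, 0.145 at 45 to 50%, 0.077 at 55 to 60% and -0.009 at 60 to 65%. The other peaks of the table had 0.161, 0.146, 0.019 and -0.115 in the same classes of GC.

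Levels in this contrast are CPM over the peaks of the MEF table. The 4 sites called without pairing lay in Sh3tc2, Zfp827, Mxra7 and Palld. The Sh3tc2 site, in the last intron at chr18:62017244-62017749, held 54.3, 51.8 and 46.0 CPM in MEFs 1, 2 and 4 on BGI and 39.8, 37.9 and 35.5 on Illumina. Its log2 ratio was 0.40 with an SE of 0.08 (edgeR quasi-likelihood test, adjusted p = 0.0258), and BGI was higher in 3 of 3 libraries. The ratios of the Zfp827, Mxra7 and Palld sites were 0.49, 0.35 and 0.44. Next in order of p was a site of E130114P18Rik at 0.35 (adjusted p = 0.0595 by edgeR). All 5 were higher in 3 of 3 libraries and were called with the block.

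In the other direction the site in intron 1 of 13 of Cald1, at chr6:34610093-34610599, came first. It held 36.5, 32.0 and 36.4 CPM in MEFs 1, 2 and 4 on BGI and 45.0, 41.5 and 42.4 on Illumina, without overlap. The log2 ratio was -0.32 with an SE of 0.08 (edgeR, adjusted p = 0.0503), and with the block the adjusted p was 4.65e-06. The sites of Lncppara, Macrod1, Kif5b and Ttc28 followed, with ratios of -0.45, -0.40, -0.33 and -0.33, and edgeR adjusted p-values of 0.169 to 0.254. With the block all 4 were called. With the block and the GC offset, the calls of Macrod1 and Kif5b were kept, and those of Lncppara (ratio -0.25, edgeR adjusted p = 0.0854) and Ttc28 (ratio -0.16, edgeR adjusted p = 0.0623), with 65.1% and 63.8% GC, were lost.

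Single values per sample pointed the same way as the ratio but could not pass the exact tests used here with 3 libraries. On BGI the share of reads in the sites was 11.4% ± 0.619 (SD, n = 3), above the 10.4% ± 0.588 (SD, n = 3) on Illumina in every library (exact permutation test, two-sided, p = 0.2). Called intervals over the sites had a median width of 860.5 ± 21.7 bp (SD, n = 3) on BGI, narrower in every library than the 905 ± 18 bp (SD, n = 3) on Illumina (exact permutation p = 0.1, which is as low as 3 samples against 3 can go). The median summit fold enrichment was 13.9 ± 1.49 (SD, n = 3) on BGI, and on Illumina 12.5 ± 1.09 (SD, n = 3), with an exact permutation p of 0.2. Over all called intervals of a sample, not those at the sites alone, the median width was also narrower on BGI in every MEF library (441, 432 and 467 bp in MEFs 1, 2 and 4, against 481, 464 and 496 bp). The median fold over all called summits was lower on BGI in every MEF library (5.29, 5.05 and 5.02, against 5.45, 5.11 and 5.11), unlike that at the sites. Adjusted over these 3 measures at the sites every exact permutation p was 0.2. Paired by library, the exact sign-flip test gave 0.25 for each, the smallest it can give.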

How the data were processed

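Omni-ATAC-seq reads of 6 libraries, each sequenced on 2 platforms, were processed by the authors. Trimmed reads were mapped to GRCm38 (mm10 in the submitters' processing notes) using Bowtie2, filtered for duplicates, for mapping quality and against the mitochondrial genome, and thinned to 1 depth per cell type. They called peaks per sample with MACS2 at p 0.01, and the deposited calls hold the summit fold enrichment as a ratio and the -log10 p. Their lists of reproducible peaks give positions without scores, for peaks whose score, scaled to a sum of 1000000 per sample, was at least 3 in at least 2 samples. The deposited tables hold raw read counts per peak, without normalization, as the authors made them. Count columns without a platform name were taken as Illumina, and 6 columns of mESC samples in the table of MEF peaks were not used. Peaks are printed as deposited. Those of the BGI peak set are 502 bp wide, their starts count from 0, and the summit base was found accordingly. Those of the table of MEF peaks vary in width.

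Positions were annotated with GENCODE M21. The host gene was the shortest protein-coding gene over a site, or else the shortest other gene. CPM are reads per 1000000 reads in the 91354 peaks, and log2 levels have 0.5 reads added. Tests across peaks used the two-sided quasi-likelihood test of edgeR 4.0.16 with TMM normalization and an adjusted p under 0.05 over the whole table, and DESeq2 1.42.0 as an alternative. The edgeR step was tested on simulated counts with known changes. Single values per sample were compared by exact permutation (SciPy 1.17.1). Library numbers pair the samples, since the same library was read on both platforms. In MEFs, deviations from the platform mean correlated at r = 0.618 to 0.837 between readings of the same library and at -0.676 to 0.298 between others.

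Named sites were the 10 most open, the genes with most sites in number and per length, up to 4 genes per list with their most open site, the 5 that differed most among MEF libraries, the 5 with the lowest platform p in each direction, and the 5 nearest the edge of the rule on each side. The sites, lists, words and naming rules were chosen with earlier results of these data known. A gene that the naming rule picks is not reported here. Intervals and read floors cover counting error only.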

Additional observations from a re-analysis of the deposited data

How the results depend on the processing

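The number of sites was 9841 with 50% overlap, 10361 and 8991 with TSS distances of 500 bp and 2 kb, 9219 with protein-coding genes only and 9805 on the Illumina peak set, where 9761 of the 9802 sites overlapped a site found in the same way. The AP-1 share was 32.1% in the central 200 bp, 41.64% with 1 site per gene and 46.1% for TGANTCA. The first-intron share was 49.8% over any transcript, and the median TSS distance 30.62 kb to protein-coding transcripts.

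In the platform test, the count of sites higher on BGI was 54 with DESeq2, 1904 with the library block, 263 with block and GC offset, 1 on the BGI peak set, and 0 to 73 without 1 library (73 without MEF 4, 0 without MEF 1 or MEF 2). The count lower was 2 with DESeq2, 1 with RLE size factors, 55 and 175 with the paired fits, 1 on the BGI peak set, and 0 to 11 without 1 library. Over all peaks the counts higher and lower were 518 and 5396 with DESeq2, 95 and 2841 with RLE, 34 and 3437 on the BGI peak set, 370 and 5762 without MEF 4, and 0 and 0 without MEF 1 or MEF 2, so the counts of 0 sites there say nothing about the sites. The median log2 ratio was 0.122 with DESeq2 and with RLE, 0.154 with library sizes alone, 0.011 with block and GC offset, 0.086 on the BGI peak set and 0.086 to 0.124 without 1 library. The cause of these shifts was not tested. The low-count filters removed no peak. The counts of sites lower in mESCs stayed close to the main count, and their medians kept their direction, under every alternative run. The 3 single-value differences kept their sign, and their exact tests could not pass 0.05 in any setting. With 3 libraries per group, differences under the spread between libraries are not detectable by the unpaired tests.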

Other observations

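The soft-masked share of the reference, which marks repeats, was a median of 9.58% in the MEF-only intronic sites, 15.4% in mESC-only intronic sites and 9.18% in shared sites. Summits at the sites were mostly single: 3.48% to 6.06% of the sites held 2 or more called summits in a MEF sample. In each MEF library that share was higher on Illumina (5.30%, 5.42% and 6.06% in MEFs 1, 2 and 4) than on BGI (3.56%, 3.48% and 4.78%), which was not tested. Sites over more than 1 annotated gene numbered 530 (5.41%), and for these the host gene is a choice of the naming rule.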
